A study of Mus musculus with 23 samples.

Results

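The 10 genes described here form the feedback loops of the circadian clock or are direct readouts of it: Per1, Per2, Per3, Cry1, Cry2, Clock, Npas2, Dbp, Nr1d1 and Nr1d2. They were taken by name from the platform's annotation, out of 18193 genes with a probe set of their own, and all 10 were measured. They hold 23 probe sets, and each gene is represented by its probe set with the highest mean over the 23 arrays. The choice rests on gene names and not on a measured threshold. Gene expression was measured in whole livers of male mice labelled hemizygous FVB/N-SULT1A1/2, a line that carries the human sulfotransferase genes SULT1A1 and SULT1A2; every group carries them, and the promoter that drives them is not given in the sources used here. Treated mice were given oral 1-MIM-OH (1-methoxy-3-indolylmethyl alcohol, from a glucosinolate of cabbage-family vegetables), 26 mg per kg and dose, with 3 doses weekly. RNA was measured on Affymetrix arrays, 1 per animal. Control mice received the vehicle alone, glyceryl trioctanoate. The 4 groups were vehicle at 21 d (10 treatments, n = 6), 1-MIM-OH at 21 d (10 treatments, n = 5), vehicle at 90 d (40 treatments, n = 6) and 1-MIM-OH at 90 d (40 treatments, n = 6), with the age labelled as 5 weeks in every group. All livers were taken 24 h after the last treatment; the hour of the day is not given in the sources used here, and it may differ between animals.

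In the core loop of the clock, CLOCK or its relative NPAS2 pairs with BMAL1, the product of Arntl, and drives transcription from E-box elements. The period (Per) and cryptochrome (Cry) proteins made in this way feed back to block that pair, while the nuclear receptors REV-ERB alpha (Nr1d1) and REV-ERB beta (Nr1d2) repress Arntl through ROR elements. Dbp, with its relatives Tef and Hlf, carries the rhythm to output genes through D-box elements, and Nfil3 represses from the same elements. In liver these transcripts rise and fall over the day, with Arntl and Npas2 opposite in phase to Dbp and the Rev-erb genes.

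The promoter stretches that hold such elements are shown as background, and any link between them and the values below was not tested. RefSeq promoters of the GRCm38.p6 assembly, reaching from 250 bases before to 50 after a transcription start, were searched on both strands for the E-box (CACGTG), the E-prime box (CACGTT), the D-box (TTATGTAA or TTACGTAA), the ROR element core (TAGGTCA) and the cAMP element (TGACGTCA). The table holds 12 promoters of 9 members and none of Per2. Of these members, 5 held at least 1 match, printed 5' to 3' on the gene's strand with the match in capitals. Per1 (chr11:69098753-69098818, + strand) has an E-box that begins 166 bases before the start. Per3 (chr4:151044786-151044900, - strand) has D-boxes 205 and 158 bases before the start. Cry1 (chr10:85185079-85185163, - strand) has an E-prime box at 79 and an E-box at 60 bases before the start. Cry2 (chr2:92434200-92434265, - strand) and Nr1d1 (chr11:98775378-98775435, - strand) each have an E-prime box, 166 and 28 bases before the start.
Per1: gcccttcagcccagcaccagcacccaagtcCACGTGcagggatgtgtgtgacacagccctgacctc
Per3: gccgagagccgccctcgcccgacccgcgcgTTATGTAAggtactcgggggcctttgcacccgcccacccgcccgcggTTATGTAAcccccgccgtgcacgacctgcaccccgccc
Cry1: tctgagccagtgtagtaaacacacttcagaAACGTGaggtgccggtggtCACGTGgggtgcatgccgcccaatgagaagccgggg
Cry2: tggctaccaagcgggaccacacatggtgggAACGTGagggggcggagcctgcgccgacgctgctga
Nr1d1: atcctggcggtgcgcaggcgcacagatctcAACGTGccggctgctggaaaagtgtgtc
Among all 32851 promoters of this length, 7.15% held the E-box, 4.68% the E-prime box, 1.06% a D-box, 2.61% the ROR core and 1.79% the cAMP element. No match of 1 motif overlapped another in the stretches shown. The windows of Clock, Npas2, Dbp and Nr1d2, and a second Per1 start, did not hold these letters.

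The median log2 signal of an array was 5.53 to 5.61, and arrays of a group correlated at 0.984 to 0.997. All 7 hepatocyte markers, albumin among them, had group means between 14.26 and 15.27. The Gapdh control probe sets measure both ends of 1 transcript, and their difference (3' end less 5' end), which grows as RNA or its labelled product is shortened, exceeded 0.9 in 5 arrays: 1-MIM-OH replicates 1, 3, 4 and 5 at 21 d and replicate 6 at 90 d. At 21 d it averaged 1.00 ± 0.51 (SD, n = 5) among treated and 0.33 ± 0.13 (SD, n = 6) among vehicle livers. The remaining treated liver at 21 d, replicate 2, stood at 0.14 and had the highest Saa1 signal of the series, 14.83 (Saa1 encodes an acute-phase protein). The counts of passing pairs and neighbour relations, with their main correlations, are given with and without these arrays, as are several differences at 21 d. The Cry1 difference at 90 d is not given without these 5 arrays.

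The clock genes varied strongly between livers of the same group. Dbp had a within-group SD of 1.24 on the log2 scale, rank 24 of 18193 genes. Its SD was 2.33 in treated livers at 21 d, 0.95 in vehicle livers at 21 d, and 0.55 and 0.58 in vehicle and treated livers at 90 d. Without treated replicate 2 of 21 d the pooled SD of Dbp was 0.76, rank 92, Per2 and Per3 had 0.50 and 0.45, and Nr1d2 had 0.24. With all livers, Per2 followed at 0.70, Per3 at 0.58 and Per1 at 0.51, against a median of 0.15 for all genes. Nr1d2 had 0.38, Nr1d1 0.32, Cry2 0.30, Clock 0.28 and Cry1 0.21. Npas2, at 0.16, was close to the median gene, and its signal was low, with a mean of 5.12. In whole tissue, fewer cells that express a gene and less RNA per cell cannot be told apart.

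**Figure D1:**
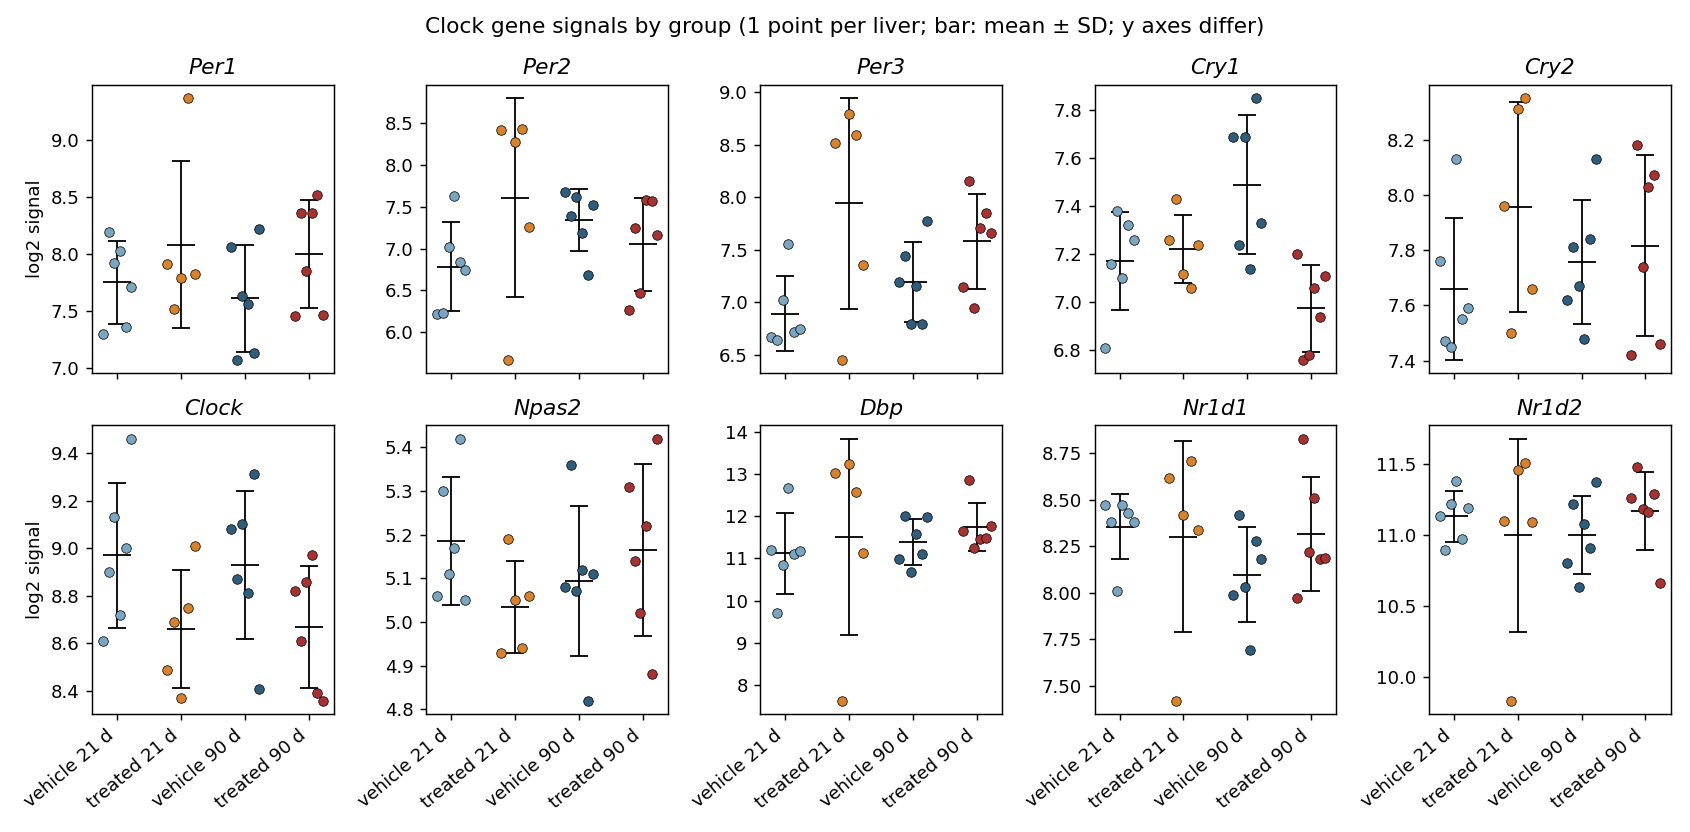
Log2 signal of the 10 clock genes in 23 livers (y axes, which differ between panels; x axis, the 4 groups), with 1 point per liver and bars for the group mean ± SD. The 1-MIM-OH livers at 21 d spread widest for Dbp, from 7.62 to 13.24, and the treated Cry1 points at 90 d lie between 6.76 and 7.20.

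In the treated livers at 21 d the members ran from low to high within 1 group. Dbp, a PAR bZIP transcription factor, had log2 signals of 13.03, 7.62, 13.24, 12.58 and 11.13 in replicates 1 to 5. Its highest liver thus exceeded its lowest 49.2-fold. Vehicle livers at 21 d ran from 9.70 to 12.68 with a median of 11.15, so the treated values lay on both sides of them. Per2, a repressor of the core loop, stood at 8.41, 5.67, 8.27, 8.43 and 7.26 in the same treated livers. Vehicle livers had 6.22 at the lowest, 6.80 at the median and 7.63 at the highest. Replicates 1, 3 and 4 were above every vehicle liver and replicate 2 below every one. Per3, the third period gene, had 8.52, 6.45, 8.79, 8.59 and 7.36, against 6.64, 6.74 and 7.56 (lowest, median and highest) in vehicle livers. Here too replicates 1, 3 and 4 were above, and replicate 2 below, all vehicle livers.

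The first comparison asked whether 10 treatments changed the members. None of the 10 passed at an adjusted p under 0.05 (limma, adjusted over 45037 probe sets), where 1.17% of all genes passed. At an unadjusted p under 0.05, 2 of the 10 were higher, Per2 and Per3, where 16.6% of all genes reached that level in either direction. Per3 was 1.05 higher (SE 0.32; 2.07-fold; means 7.94 ± 1.00 and 6.89 ± 0.35, SD; limma adjusted p = 0.0994). Per2 was 0.83 higher (SE 0.38; 1.77-fold; limma adjusted p = 0.292). The median difference of the members was 0.17, against -0.02 for all genes, and 6 of 10 were above 0. Treated and vehicle values overlapped for all 10 members. Among all genes 2.81% had groups that did not overlap, a share from which 10 genes cannot be told apart.

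Replicate 2 decided the calls at 21 d. Without it, Per3 was 1.42 higher (limma adjusted p = 0.00585) and Per2 1.31 higher (limma adjusted p = 0.0138), and both passed. The share of all genes that passed in that fit is not given here. Dbp was then 1.38 higher but did not pass (limma adjusted p = 0.0697), against 0.40 (SE 0.68) with all livers. Treated replicates 1, 3, 4 and 5, which remained, had Gapdh differences of 1.02 to 1.45, and vehicle livers at 21 d had 0.09 to 0.49. Without replicate 2, treatment and RNA shortening thus cannot be told apart at 21 d. With the Gapdh difference as a covariate, Per3 was 0.57 higher (limma adjusted p = 0.753) and Per2 0.07 higher (limma adjusted p = 0.986), and Dbp turned to -0.65. Leaving out the 5 arrays above 0.9 keeps replicate 2 as the only treated liver at 21 d, so that group has no spread of its own. Dbp then stood at -3.50 and Nr1d2 at -1.30, values that rest on 1 treated liver. The part that RNA shortening has in these differences was not tested further. All measured markers of 3 other cell types stood lower in treated livers at 21 d by their means, and none passed. These were 7 of 7 for Kupffer cells (median -0.40), 6 of 6 for endothelial cells and 5 of 5 for T and NK cells. Hepatocyte markers were lower in 6 of 7 and cholangiocyte markers in 4 of 5. B cell, stellate cell and pancreas markers were lower in 2 of 3, 3 of 6 and 1 of 2. Neutrophil markers were higher in 3 of 3. The mean log2 signal of the Kupffer markers ran from 7.78 to 10.78 in treated and from 8.11 to 10.27 in vehicle livers, and their part in the differences of Per2, Per3 and Dbp was not tested.

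The other members differed little at 21 d. Per1, a light-inducible and glucocorticoid-inducible period gene, differed by 0.33 (SE 0.28), with 9.37 in treated replicate 4 and 7.52 to 7.91 in the other treated livers; without replicate 4 the difference was 0.011. Cry2, a repressor that partners the period proteins, differed by 0.30 (SE 0.17) and Cry1, its paralogue, by 0.05 (SE 0.12). Clock, which encodes the activator of the loop, differed by -0.31 (SE 0.16) and Npas2, its relative, by -0.15 (SE 0.10). The nuclear receptor genes Nr1d1 and Nr1d2 differed by -0.05 (SE 0.18) and -0.13 (SE 0.21), and both signs turned without replicate 2, to 0.17 and 0.16. Nr1d1 in treated livers was 8.62, 7.42, 8.42, 8.71 and 8.34, and Nr1d2 was 11.10, 9.83, 11.46, 11.51 and 11.09, so that replicate 2 was the lowest in both.

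**Figure D2:**
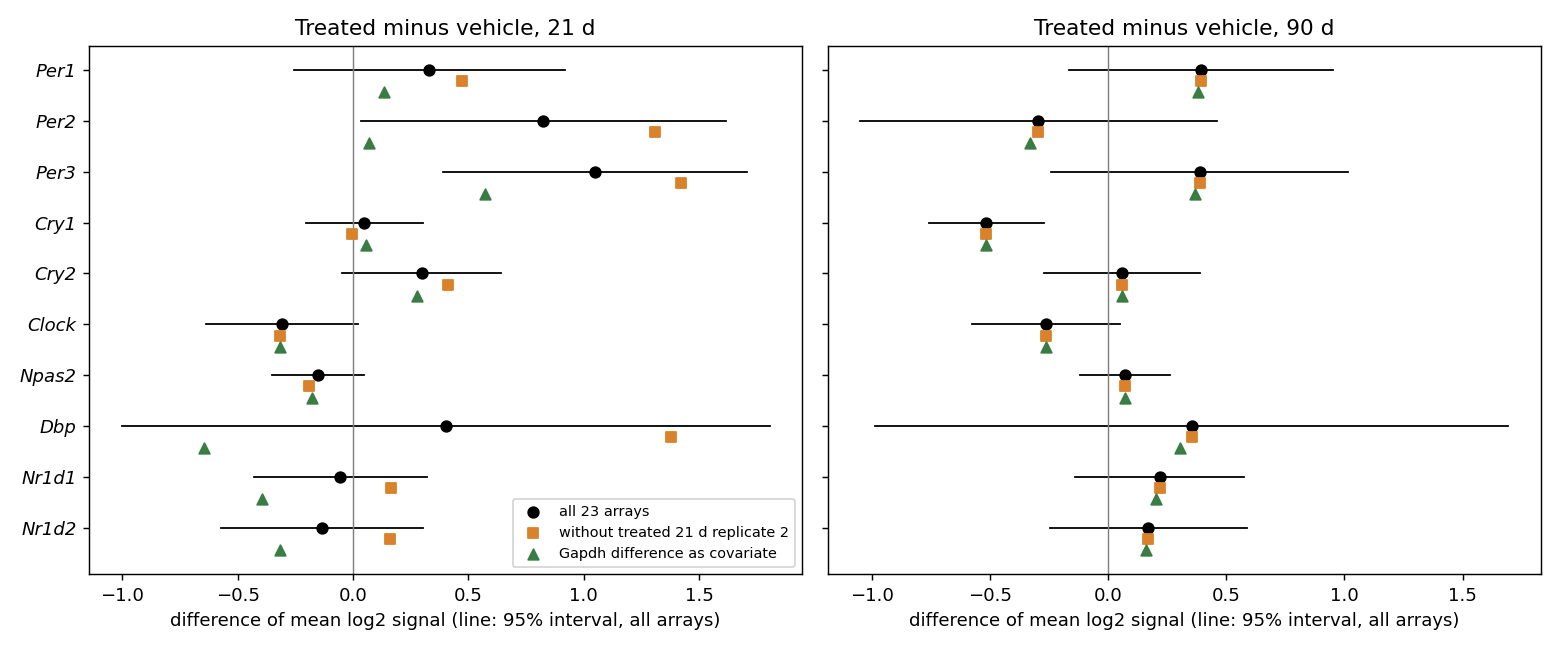
Treated minus vehicle difference of mean log2 signal (x axes) for the 10 members (y axis) at 21 d and 90 d, with all arrays and 95% intervals, without treated replicate 2 of 21 d, and after adding the Gapdh difference to the model. At 21 d the Dbp value moves from 0.40 to 1.38 or -0.65, while the square at 90 d equals the circle because the liver left out is not in that contrast.

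At 90 d, 1 of the 10 members passed, Cry1, which was lower in treated livers; 0.748% of all genes passed this comparison. Cry1 signals ran from 7.14 to 7.85 in vehicle livers, with a median of 7.51, and from 6.76 to 7.20 in treated livers, with a median of 7.0. The groups overlapped between 7.14 and 7.20, where the lowest vehicle and the highest treated liver lay. Cry1 fell by 0.515 on the log2 scale (SE 0.12; 1.43-fold; means 7.49 ± 0.29 and 6.98 ± 0.18, SD, n = 6 each; limma adjusted p = 0.0462). The call sat close to the threshold. It was lost with the 2 groups of 90 d fitted alone (adjusted p = 0.103) and with the replicate number as a block (adjusted p = 0.0934), both by limma, and in 17 of 23 fits that each left out 1 liver, with differences from -0.585 to -0.443 and adjusted p from 0.0238 to 0.139. All 7 Kupffer cell markers were higher in treated livers at 90 d by their means, none past the test; their mean log2 signal ran from 7.87 to 9.38 in vehicle and from 8.01 to 9.74 in treated livers, and their part in the Cry1 difference was not tested.

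No other member passed at 90 d. Differences were 0.39 for Per1 (SE 0.27), 0.39 for Per3 (SE 0.30), 0.35 for Dbp (SE 0.65), 0.22 for Nr1d1 (SE 0.17), 0.17 for Nr1d2 (SE 0.20), 0.07 for Npas2 (SE 0.09) and 0.06 for Cry2 (SE 0.16). Per2 stood at -0.30 (SE 0.36) and Clock at -0.26 (SE 0.15). The Dbp interval, from -0.99 to 1.69, shows how wide a difference these livers leave for the most variable member. Without treated replicate 2 of 90 d the differences were 0.13 for Dbp, 0.12 for Nr1d1 and 0.11 for Nr1d2. Without vehicle replicate 3 those of Dbp and Nr1d2 were 0.21 and 0.096, and without treated replicate 1 that of Per2 was -0.14. Dbp ran from 10.69 to 12.01 in vehicle and from 11.26 to 12.87 in treated livers, and treated replicate 2 held the highest value. Per3 ran from 6.79 to 7.78 and from 6.95 to 8.16, with the groups overlapping over most of the range.

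The difference between the treatment effects at 90 d and 21 d was tested directly. None of 10 members passed, and 0% of all genes did. At an unadjusted p under 0.05, Per2 (-1.12, SE 0.53; limma adjusted p = 0.517) and Cry1 (-0.57, SE 0.17; limma adjusted p = 0.492) were lower, where 8.64% of all genes reached that level. The Cry1 decrease at 90 d is thus not shown to differ from the 21 d value. Vehicle livers at 90 d were compared with those at 21 d, which also serve the treatment contrasts, and none of 10 members passed, where 0.0110% of all genes did. At an unadjusted p under 0.05 Cry1 alone was higher at 90 d, by 0.32 (SE 0.12; limma adjusted p = 0.763), where 6.43% of all genes reached that level. Between treated livers at 90 d and 21 d none of 10 passed, with 0 at an unadjusted p under 0.05, where 0.0934% and 13.3% of all genes did. Without treated replicate 2 of 21 d, Per2 was lower at 90 d by that comparison (-1.04, limma adjusted p = 0.0480). The share of all genes that passed in that fit is not given here, and its treated livers of 21 d were all above 0.9 in the Gapdh difference.

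Several members varied together between livers. For every pair of members the deviations of the 23 livers from their group means were correlated, and p came from 100000 permutations within groups. Of 45 pairs, 15 passed at a Benjamini-Hochberg adjusted p under 0.05 over the 45 pairs, 13 of them positive. As background, 3.20% of the 108350 relations between a member and any other gene of mean signal at least 6 had a permutation p at or below that of the weakest passing pair (10000 permutations), over the same livers. By Spearman's rho, 16 passed, and they are not all the same pairs. All 15 kept their sign without the 2 livers farthest from the median, and 12 had the same sign in each of the 4 groups. The count was 9 without treated replicate 2 of 21 d and 5 without the 5 arrays above 0.9 in the Gapdh difference, a setting with 18 livers in which replicate 2 alone stands for its group. It was 19 with the Gapdh difference as a covariate. The 9 pairs without treated replicate 2 of 21 d include Per3 with Clock, which is not among the 15.

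**Figure D3:**
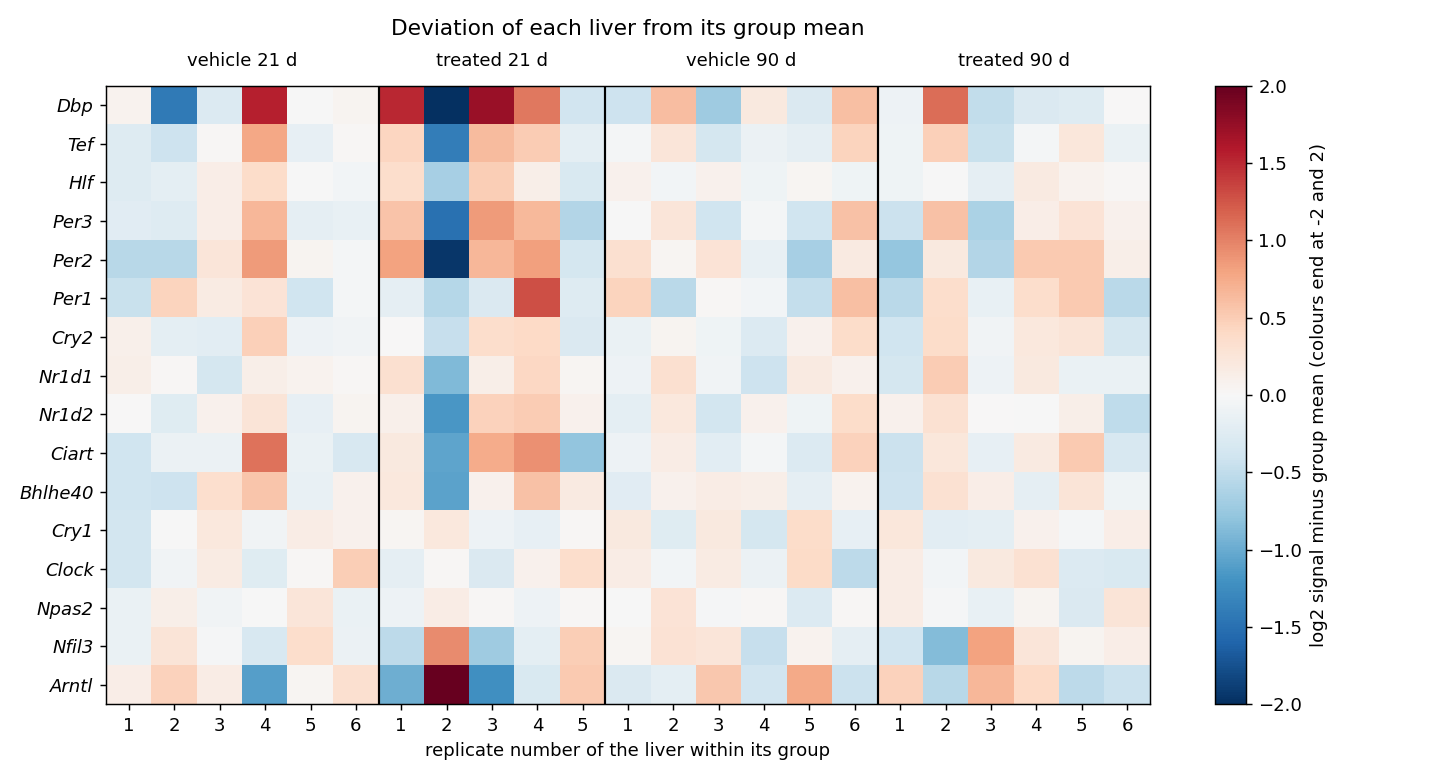
Deviation of log2 signal from the group mean (colour, with the scale ending at -2 and 2) for the clock genes and 6 related genes (rows) in 23 livers (columns, by group and replicate number). Replicates 1, 3 and 4 of the treated livers at 21 d are high in Dbp and low in Arntl, and replicate 2 is the reverse.

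The highest correlations joined Per3 with Dbp, Per2 with Per3, and Dbp with Nr1d2. Per3 and Dbp correlated with r = 0.888 (permutation p = 4e-05, adjusted 0.0018; rho = 0.796, permutation p = 0.0001, adjusted 0.00248), and r was 0.787 without the 2 farthest livers. Within the groups r was 0.80 in vehicle livers at 21 d, 0.97 in treated livers at 21 d, 0.85 in vehicle livers at 90 d and 0.69 in treated livers at 90 d. Per2 and Dbp also passed by r (0.798) but not by rho (0.503, adjusted permutation p = 0.0674). Their r was 0.79 and 0.99 at 21 d but -0.04 and 0.19 at 90 d, in vehicle and treated livers. Per2 and Per3 correlated with r = 0.885 (permutation p = 9e-05, adjusted 0.0018; rho = 0.833, permutation p = 0.00017, adjusted 0.00255), and r was 0.802 without the 2 farthest. Dbp and Nr1d2 correlated with r = 0.859 (permutation p = 0.00012, adjusted 0.0018; rho = 0.760, permutation p = 0.00011, adjusted 0.00248), with 0.651 without the 2 farthest. Without the 5 arrays above 0.9 these 3 pairs had r = 0.734, 0.737 and 0.819, and without treated replicate 2 of 21 d they had 0.801, 0.787 and 0.621; all 3 passed in both settings. Cry2 passed by r with 6 members: with Nr1d1 (r = 0.705), Nr1d2 (0.691), Per3 (0.758), Dbp (0.658), Per2 (0.647) and Per1 (0.553). That last pair was the only one of Per1 to pass by r, and it did not pass by rho (0.514, adjusted permutation p = 0.0544). By rho, Per1 passed with Per2 (0.595, adjusted permutation p = 0.031). Per1 had r = 0.236 with Dbp, 0.544 with Per2 and 0.499 with Per3. Without the 5 arrays above 0.9 the Cry2 pairs, in the order above, had r = 0.689, 0.534, 0.741, 0.631, 0.569 and 0.415. Of these, only the pair of Cry2 with Per3 passed. Without treated replicate 2 of 21 d they had 0.655, 0.672, 0.722, 0.626, 0.570 and 0.501. In that last setting the pairs of Cry2 with Per2 and Per1 did not pass.

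By r, Cry1 passed with 2 members, both negatively, and with no other. By rho, Cry1 also passed with Cry2 (-0.504, adjusted permutation p = 0.0458). It correlated with Dbp at r = -0.416 (permutation p = 0.0129, adjusted 0.0415; rho = -0.520, permutation p = 0.0119, adjusted 0.0413) and with Nr1d2 at r = -0.510 (permutation p = 0.00333, adjusted 0.0150; rho = -0.535, permutation p = 0.0103, adjusted 0.0385). Without the 2 farthest livers these were -0.479 and -0.595. Without treated replicate 2 of 21 d they were -0.374 and -0.524, and without the 5 arrays above 0.9 they were -0.411 and -0.505, and neither passed in either setting. With all livers, neither Clock nor the brighter Npas2 probe set passed with any member by r. Clock did so by rho with Dbp (-0.521, adjusted 0.0458) and with Per3 (-0.520, adjusted 0.0458). Without treated replicate 2 of 21 d, Clock passed with Per3 by r as well (-0.607, adjusted permutation p = 0.0278).

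Genes next to the members in the pathway were set against the same deviations, a choice made after their values were seen, with 90 relations adjusted together. Arntl, which encodes BMAL1, passed with 6 members and was lowest with Per3 (r = -0.926; permutation p = 1e-05, the smallest that 100000 permutations can give; adjusted 0.000225; rho = -0.891, adjusted 0.0003). It correlated at -0.889 with Dbp and -0.840 with Per2, and at 0.570 with Clock, its partner. In treated livers at 21 d Arntl stood at 6.02, 9.0, 5.77, 6.70 and 7.52, so the liver with the lowest Dbp had the highest Arntl of the series. Tef passed with 6 members, among them Per3 (r = 0.954; permutation p = 1e-05; rho = 0.932), Dbp (0.939) and Nr1d2 (0.871). Ciart, a repressor of the loop, passed with 6 members, and Bhlhe40, another repressor, with 5. Hlf passed with 3 members and Nfil3 with 3, all negative for Nfil3, with Dbp at -0.767. Of 10835 other genes of mean signal at least 6, a set that includes these neighbours, 0.194% were related to 6 or more members at a permutation p up to that of the weakest passing relation, 0.498% to 5 or more and 2.47% to 3 or more. Without the 5 arrays above 0.9, Tef passed with 4 members, Arntl and Ciart with 3 each, Nfil3 and Hlf with 1 each and Bhlhe40 with 0. Arntl then had r = -0.868 with Per3 and -0.749 with Dbp, and Tef 0.927 and 0.860. Without treated replicate 2 of 21 d, Tef and Ciart passed with 5 members, Arntl with 4, Nfil3 and Hlf with 2 each and Bhlhe40 with 1. Saa1, Cdkn1a (a cell cycle inhibitor) and the Gapdh difference passed with 0 of 10 members, with r for the Gapdh difference from -0.010 to 0.527. Within groups of 5 or 6 livers their values differed in sign. In treated livers at 21 d Saa1 had r = -0.984 with Dbp and -0.977 with Per2, against 0.494 and 0.070 in vehicle livers at 21 d. The Gapdh difference had r = 0.789 with Dbp in treated and -0.968 in vehicle livers at 21 d, and 0.890 with Nr1d1 in the treated ones. Without treated replicate 2 of 21 d the Gapdh difference passed with 1 member, Nr1d2 (r = -0.646, adjusted permutation p = 0.0272), against r = 0.236 with all livers.

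**Figure D4:**
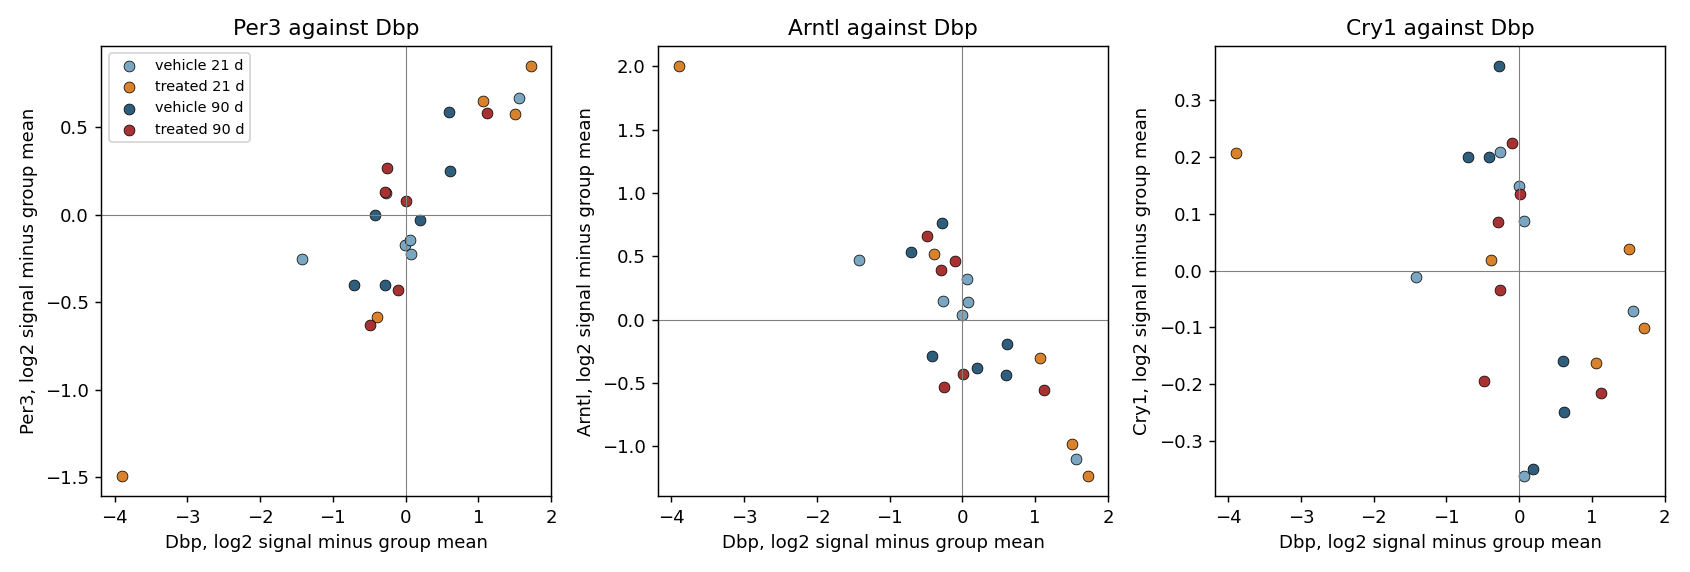
Per3, Arntl and Cry1 (y axes) against Dbp (x axes), each as log2 signal minus the group mean in 23 livers, coloured by group. Per3 rises with Dbp and Arntl falls (r = 0.888 and -0.889), Cry1 falls less tightly (r = -0.416), and the liver at the far left is treated replicate 2 of 21 d.

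Across all genes with a mean signal of at least 6, those most like each member were listed as a description, over 23 livers and with no test. Tef was the most like Dbp (r = 0.939), Nr1d2 (0.871) and Per3 (0.954), and Per3 was followed by the glycogen synthase gene Gys2 (0.938) and the deubiquitinase gene Usp2 (0.927). For Dbp, Cys1 (0.890) and Per3 (0.888) came next, and Slc45a3 (-0.910), Fpgs (-0.903) and Pxmp4 (-0.893) were the lowest. Arntl (-0.926) was the lowest for Per3 and was followed by Clpx (-0.878) and Pid1 (-0.871). For Cry2, Ciart (0.853), Stbd1 (0.813) and Cox6a1 (0.804) were highest. Per2 had 2900026A02Rik (0.923) and Rap2a (0.886) above it and Rnf125 (-0.941) and Cldn1 (-0.890) at the other end. Per1 was most like Uqcrc1 (0.825), Nr1d1 most like Mn1 (0.896), Clock most like Zfp597 (0.824), Npas2 most like Kcnq1 (0.815) and Cry1 most like Senp1 (0.656). The lowest were Pigh for Per1 (-0.714), Rnf19b for Cry1 (-0.720), Lgalsl for Cry2 (-0.807), Zyx for Clock (-0.792), Zfp991 for Npas2 (-0.750), Lrrfip1 for Nr1d1 (-0.864) and Dnmt3b for Nr1d2 (-0.866). The livers share their groups' arrays and normalization, so these values are not independent of each other. The list was not made again without treated replicate 2 of 21 d, whose Dbp signal deviated by -3.9 from its group mean. Without that liver Tef had r = 0.874 with Dbp, 0.711 with Nr1d2 and 0.919 with Per3.

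The 13 other probe sets of the members were checked against the representative ones. The second Dbp probe set followed the first (r = 0.988, permutation p = 1e-05, adjusted 0.000127 over 38 relations; rho = 0.954) and ran from 6.96 to 11.50 in treated livers at 21 d. Of the 4 Clock probe sets, 2 others followed the representative one (r = 0.880 and 0.831), and their treatment differences were near 0 (-0.02 each at 21 d and -0.05 each at 90 d), so the Clock values of -0.31 and -0.26 rest on 1 probe set. The second Npas2 probe set was dimmer but varied more, from 4.21 to 5.85. It was unrelated to the brighter one (r = 0.059) and correlated negatively with Dbp (r = -0.733, permutation p = 0.00496, adjusted 0.0269; rho = -0.689) and positively with Arntl (r = 0.696, permutation p = 0.00685, adjusted 0.0310; rho = 0.614). Its treated livers at 21 d had 4.45, 5.6, 4.24, 4.30 and 5.85, lowest in the 3 livers that were highest in Dbp. Of the 5 other Per3 probe sets, 2 followed the representative one past the adjusted threshold (r = 0.712 and 0.682), with 0.661, 0.445 and -0.093 for the others. The 2 other Per2 probe sets were dim, ran from 5.62 to 7.14 and from 5.61 to 6.48, and correlated with the representative one at r = 0.660 and 0.602 (adjusted 0.0618 and 0.0915); at 21 d they differed by 0.36 (SE 0.17) and 0.29 (SE 0.12). The second Nr1d2 probe set was dimmer, from 3.69 to 4.78, and followed the first at r = 0.610 (permutation p = 0.00475, adjusted 0.0269; rho = 0.527). None of the members' other probe sets passed a treatment contrast.

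The wider pathway lists gave no passing gene in either treatment comparison. Of the other core loop genes, 7 of 8 were measured and 0 passed at 21 d or 90 d. At 21 d Arntl stood at -0.73 (SE 0.42), Ciart at 0.58 (SE 0.30), Timeless at 0.23 (SE 0.12), Cipc at 0.18 (SE 0.13), Rora at 0.14 (SE 0.11), Bhlhe41 at 0.07 (SE 0.08) and Bhlhe40 at -0.09 (SE 0.22). At 90 d these were -0.17 (SE 0.40), 0.45 (SE 0.29), 0.35 (SE 0.12), -0.18 (SE 0.13), 0.14 (SE 0.10), -0.06 (SE 0.08) and 0.08 (SE 0.21). Among the PAR bZIP and D-box factors, 0 of 3 passed; Tef stood at 0.45 (SE 0.27) at 21 d and 0.31 (SE 0.26) at 90 d, Hlf at 0.21 (SE 0.15) and -0.01 (SE 0.14), and Nfil3 at -0.29 (SE 0.26) and -0.51 (SE 0.25).

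Of the genes that modify clock proteins, 0 of 12 passed, and Csnk1d (casein kinase 1 delta; 0.21 at 90 d, SE 0.07) and Prkaa1 (an AMPK subunit; -0.35 at 21 d, SE 0.12) had the smallest p. Of the rhythmic liver output genes, 0 of 15 passed, with G6pc (glucose-6-phosphatase; -0.89 at 21 d, SE 0.33) and Lpin1 (lipin 1; 0.64 at 90 d, SE 0.24) the closest. The glucocorticoid and fasting induced genes gave 0 of 10, with Klf9 (a glucocorticoid-induced transcription factor) 0.40 higher at 90 d (SE 0.10; limma adjusted p = 0.0848) and Tat (tyrosine aminotransferase) at -0.35 (SE 0.12). The temperature and heat shock genes gave 0 of 7, with Dnajb1 at -0.53 at 21 d (SE 0.14; limma adjusted p = 0.0708) and Hspb1 at 0.40 at 90 d (SE 0.14). At an unadjusted p under 0.05, the core loop list held 0 genes at 21 d and 1 at 90 d, the D-box list 0 and 0, the output list 4 and 2, the glucocorticoid list 2 and 3, the heat shock list 3 and 1, and the modifier list 3 and 1, where 16.6% and 12.1% of all genes reached that level.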

How the data were processed

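Liver RNA of 23 mice, 1 Affymetrix array each, was analysed; the submitters left out 1 further treated array of the 21 d group for hybridisation artefacts, per the labels. The deposited log2 values were made with Partek and RMA, per the submitters' processing notes; neither is described further there, and the base of the log was inferred from the range. RMA brings arrays to a common distribution, so a shift of all genes would not show. The number of arrays limits the precision.

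Control probe sets (64) were left out and 45037 fitted with 4 group means (limma 3.58.1, R 4.3.3; lmFit, eBayes; 19 residual degrees of freedom), with Benjamini-Hochberg adjustment over all of them. The fit and the correlations were tested on simulated data. Correlations (Python 3.11.15, numpy 2.4.6, scipy 1.17.1) used deviations from group means. Each member was named with all its probe sets, at least the first of its most and least similar genes, every gene of the core loop and D-box lists, and, from each other list, the 2 genes with the smallest p. Members and lists were chosen with earlier results of these data known. Alternatives were array weights, the Gapdh difference as covariate or filter, a signal filter, probe set means, other eBayes settings, a replicate block and leaving out each array.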

Additional observations from a re-analysis of the deposited data

Results flagged for a closer look

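Of 40 groups of livers (10 members in 4 groups), 5 held a liver set apart from the rest of its group by more than Dixon's 95% critical value; chance flags about 1 in 20 groups. Per1 was high in 1-MIM-OH replicate 4 at 21 d (9.37). Dbp was high in 1-MIM-OH replicate 2 at 90 d (12.87). Nr1d1 was low in vehicle replicate 3 at 21 d (8.01). Nr1d1 (7.42) and Nr1d2 (9.83) were both low in 1-MIM-OH replicate 2 at 21 d, the liver with the lowest Dbp and the highest Arntl.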

How the results depend on the processing

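For treated against vehicle at 21 d, the count of passing members was 1 with array weights (Per3), against 0, and 0 to 2 when single livers were left out. With array weights 1426 of 45037 probe sets passed at 21 d, against 431 in the main fit. With these weights the differences of Nr1d1 (0.062) and Nr1d2 (0.025) turned positive, and with the Gapdh covariate that of Dbp turned to -0.65. Without the arrays above 0.9 in the Gapdh difference, Per1 turned to -0.23, Per2 to -1.11, Per3 to -0.44, Cry2 to -0.16, Npas2 to 0.005 and Dbp to -3.50. These values rest on 1 treated liver, so no count of passing members is given for that setting. Leaving out single livers moved Cry1 between -0.022 and 0.092, Dbp between -0.028 and 1.377, Nr1d1 between -0.157 and 0.166 and Nr1d2 between -0.260 and 0.160. At 90 d the count was 0 with the replicate block and with only the groups of the contrast, and 0 to 1 when single livers were left out; Npas2 turned to -0.015 with the mean of all its probe sets, and Cry2 moved between -0.014 and 0.138. For the difference of the effects Per2 turned to 0.80 without arrays above 0.9, again with 1 treated liver at 21 d. For treated livers at 90 d against 21 d Per2 turned to 1.36 without those arrays. The count of passing members was 0 to 1 when single livers were left out. Dbp then moved between -0.747 and 0.658, and Nr1d2 between -0.118 and 0.302. With array weights Dbp turned to -0.20. For vehicle livers at 90 d against 21 d the count stayed at 0 in every setting run. Pairs numbered 5 without the arrays above 0.9, 17 with the replicate block, 19 with the Gapdh covariate, and 9 to 18 when single livers were left out. The causes were not tested beyond the fewer arrays that some settings leave. Deviations of same-numbered livers correlated between -0.358 and -0.139 in 11 pairs, 0 of them over 0.1, so all were negative. Whether the replicate numbers link the livers in some way was not tested. The block ended the Cry1 call at 90 d, moved the passing pairs from 15 to 17 and changed no other count. The relations of members with their neighbours, in settings added after the data were seen, numbered 29, against 12 without the arrays above 0.9 and 20 without 1-MIM-OH replicate 2 at 21 d. The number of arrays limits every value.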

Other observations

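The 3 livers with the highest signal of Mt1, a metallothionein gene induced by inflammation and glucocorticoids, were picked after their values were seen, and they lay at different clock gene levels. 1-MIM-OH replicate 2 at 21 d had Mt1 at 13.23, Saa1 at 14.83 and Dbp at 7.62. 1-MIM-OH replicate 3 at 90 d had Mt1 at 13.30, Saa1 at 14.56 and Dbp at 11.26. Vehicle replicate 2 at 90 d had Mt1 at 13.25, Saa1 at 14.06 and Dbp at 12.01.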
